A study of Arabidopsis thaliana with 2 samples.

Results

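The 41 histone genes described here code for the proteins that package nuclear DNA in Arabidopsis thaliana (thale cress). They were chosen by locus from a fixed list of H1, H2A, H2B, H3 and H4 genes, and all 41 were among the 27336 loci counted. By class they comprised 8 H4 genes, 5 H3.1 and 3 H3.3 genes, 10 H2B genes, 12 H2A genes and 3 linker histone H1 genes. The study compared leaves of the mutant line atpip1;2-1, deficient in the plasma membrane aquaporin PIP1;2 (a membrane channel), with leaves of a wildtype line. Both lines were of the Columbia ecotype, 3 weeks old and grown on soil in a greenhouse at ambient carbon dioxide with a 12 h day. Each genotype was represented by 1 library of transcript 3' ends, made from leaf RNA of 10 plants, so no difference below has a replicate check. Neither the site nor the nature of the atpip1;2-1 mutation is stated in the labels.

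Nucleosomes hold DNA around an octamer of the core histones H2A, H2B, H3 and H4, and linker histone H1 binds where the DNA enters and leaves. The canonical core histones, including H3.1, are made mainly in S phase and are put on newly copied DNA, with the chaperone complex CAF-1 placing H3.1. The variant H3.3 is made and deposited throughout the cell cycle, chiefly in transcribed genes, and so remains the main H3 supply of cells that have stopped dividing. Plant histone transcripts carry poly(A) tails, so libraries of transcript 3' ends can capture them.

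The mutant library held 4041759 reads and the wildtype library 4079098. PIP1;2 gave 566 reads in the mutant library, against 4211 in the wildtype library and so was lower in the library labelled as the mutant. Leaf mesophyll transcripts were abundant in both, with 20970 CPM in the mutant library and 21080 CPM in the wildtype library for the light-harvesting gene CAB1. The other mesophyll markers differed in both directions, with RBCS1A, a small subunit of Rubisco, at 17920 CPM in the mutant library, against 23130 CPM in the wildtype library (-0.37), and the carbonic anhydrase gene CA1 at 2800 CPM, against 3708 CPM (-0.41). PSBR, of photosystem II, was at 9920 CPM in the mutant library, against 9432 CPM in the wildtype library (0.07), and the 4 markers summed to a ratio of -0.15. Values in brackets after a pair are log2 ratios. The part of these markers in the histone levels was not tested. CPM is a read count scaled to library size, here with sizes adjusted by TMM, a trimmed mean that assumes most genes do not differ. All log2 ratios are of the mutant library over the wildtype library, and their 95% intervals cover counting error only.

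Transcripts of the replication-type histones were less abundant in the mutant library, whereas those of H3.3 were at the same level in both within counting error. H3.1 transcripts together stood at 60.4% of their wildtype level, H4 at 72.7%, H2B at 74.5% and canonical H2A at 80.4%, and H3.3 at 100.3%. The lower level was not limited to replication-type classes, since the variants H2A.X and H2A.W stood at 76.7% and 77.0%, the H2A.W value resting on 1 gene, HTA6. No histone gene reached a 2-fold difference in the exact test. A total of 20 reads in the libraries combined was reached by 38 of the 41 genes. Of these 38, 32 had a log2 ratio below 0, or 84.2%, against 50.2% of all 15111 genes tested. The median of these 38 was -0.40, and the median of all genes tested was -0.003. In leaf RNA, fewer cells of a type and less RNA per cell cannot be told apart.

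For every gene, the split of its reads between the libraries was set against their sizes in an exact, two-sided binomial test, and p was adjusted by Benjamini-Hochberg across all genes tested. Calling a gene took an adjusted p under 0.05 and a ratio of at least 2-fold. By this rule 0 of the 38 histone genes were lower, against 1.1% of all genes, and 0 were higher, against 1.3%. At an unadjusted p under 0.05, 23 of the 38 were lower and 1 was higher, against 23.5% of all genes in either direction. Without the fold condition, 17 of the 38 had an adjusted p under 0.05 and were lower, or 44.7%, against 8.38% of all genes tested. None was higher by that rule, against 5.74%. A count of at least 1.5-fold lower, without a test, gave 9 of the 38 or 23.7%, against 9.11%, and 0 were at least 1.5-fold higher, against 8.81%. With the test added, 8 were at least 1.5-fold lower, against 3.96%, and 0 at least 1.5-fold higher, against 3.28%. Histone genes are read more deeply than most, so the same counts were taken among the 8743 genes with at least 100 reads. There 17 of 35 histone genes were lower by adjusted p, against 13.4%, and 8 were at least 1.5-fold lower, against 6.69%. Below, "passed the test" means an adjusted p under 0.05 at any fold. It compares these libraries and not the genotypes. Among 2296 genes read as deeply as the middle range of the histone genes (between 319 and 922.2 reads), the robust SD of the log2 ratio was 0.33.

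**Figure D1:**
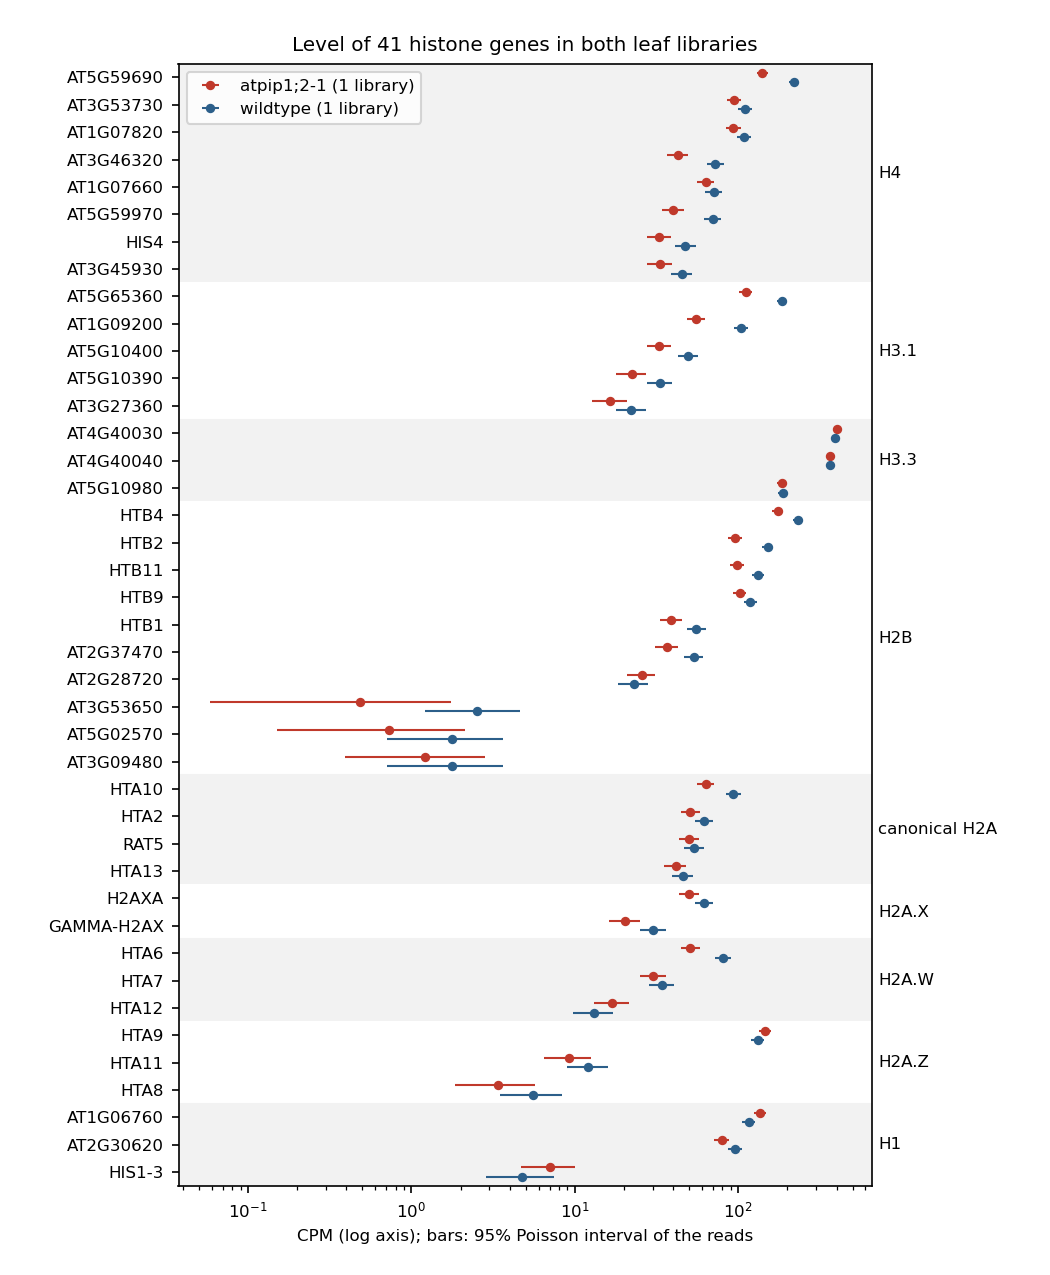
Level of the 41 histone genes in the mutant library (red) and in the wildtype library (blue), 1 library each, in CPM on a log axis with 95% Poisson intervals of the reads. The H3.1 points of the mutant library all lie to the left of the wildtype points, while the H3.3 points coincide.

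H3.1, the replication-coupled form of histone H3, showed the lowest ratio of the classes. Its 5 genes gave 985 reads in the mutant library, against 1567 in the wildtype library, or 238 CPM (95% Poisson interval 223 to 253) against 394 CPM (374 to 414). The log2 ratio of these sums was -0.73 (-0.84 to -0.61). All 5 genes were below 0 and 4 passed the test.

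The most abundant H3.1 gene, AT5G65360, gave 460 reads in the mutant library, against 735 in the wildtype library, a log2 ratio of -0.73 (-0.90 to -0.56; adjusted p = 2.94e-16 by the exact test). AT1G09200 gave 229 reads in the mutant library, against 415 in the wildtype library. Its ratio of -0.92 (-1.15 to -0.68; adjusted p = 1.95e-13 by the exact test) was the lowest of the 38 tested histone genes, and the mutant library kept 53.0% of the wildtype level. The adjacent genes AT5G10400 and AT5G10390 had nearly the same ratio. AT5G10400 was at 136 reads in the mutant library, against 197 in the wildtype library (-0.59), and AT5G10390 at 92, against 132 (-0.58). AT5G10390 did not pass under 2 of 4 other library scalings. The least abundant, AT3G27360, had 68 reads in the mutant library, against 88 in the wildtype library, and did not pass (-0.43, -0.91 to 0.04; adjusted p = 0.283 by the exact test). It overlaps the respiratory gene SDH2-1 by 328 bases in the RefSeq annotation. All H3.1 genes code for the same form of H3, so the split of reads among near-identical copies is uncertain. The class sum does not depend on such a division.

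The 3 H3.3 genes held the most reads of any class, and their levels did not differ between the libraries beyond counting error. Together they gave 3925 reads in the mutant library, against 3761 in the wildtype library, or 948 CPM (918 to 978) against 945 CPM (915 to 975). The log2 ratio was 0.005, with an interval of -0.06 to 0.07. This interval does not include the H3.1 ratio, nor any of the 5 H3.1 genes' values.

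AT4G40030 was the most abundant histone gene, with 1654 reads in the mutant library, against 1562 in the wildtype library (0.03, -0.08 to 0.13). Its neighbour AT4G40040 gave 1501 reads in the mutant library, against 1453 in the wildtype library, and AT5G10980 gave 770, against 746. Their ratios were -0.010 and -0.011, and both turned positive with other library scalings, so no direction is given for H3.3. None of the 3 passed the test, with adjusted p between 0.889 and 1 by the exact test.

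H3.1 genes therefore made up a smaller share of the H3 reads in the mutant library. The share was 20.1% (95% Clopper-Pearson interval 18.9% to 21.2%) in the mutant library, against 29.4% (28.2% to 30.7%) in the wildtype library. It needs no library scaling. With reads taken per kilobase of the longest annotated transcript, the share was 26.3% in the mutant library, against 37.2% in the wildtype library. Without the abundant AT5G65360 it was 11.8%, against 18.1%. The intervals of the 2 libraries do not overlap, though they leave out all spread between plants and library preparations.

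**Figure D2:**
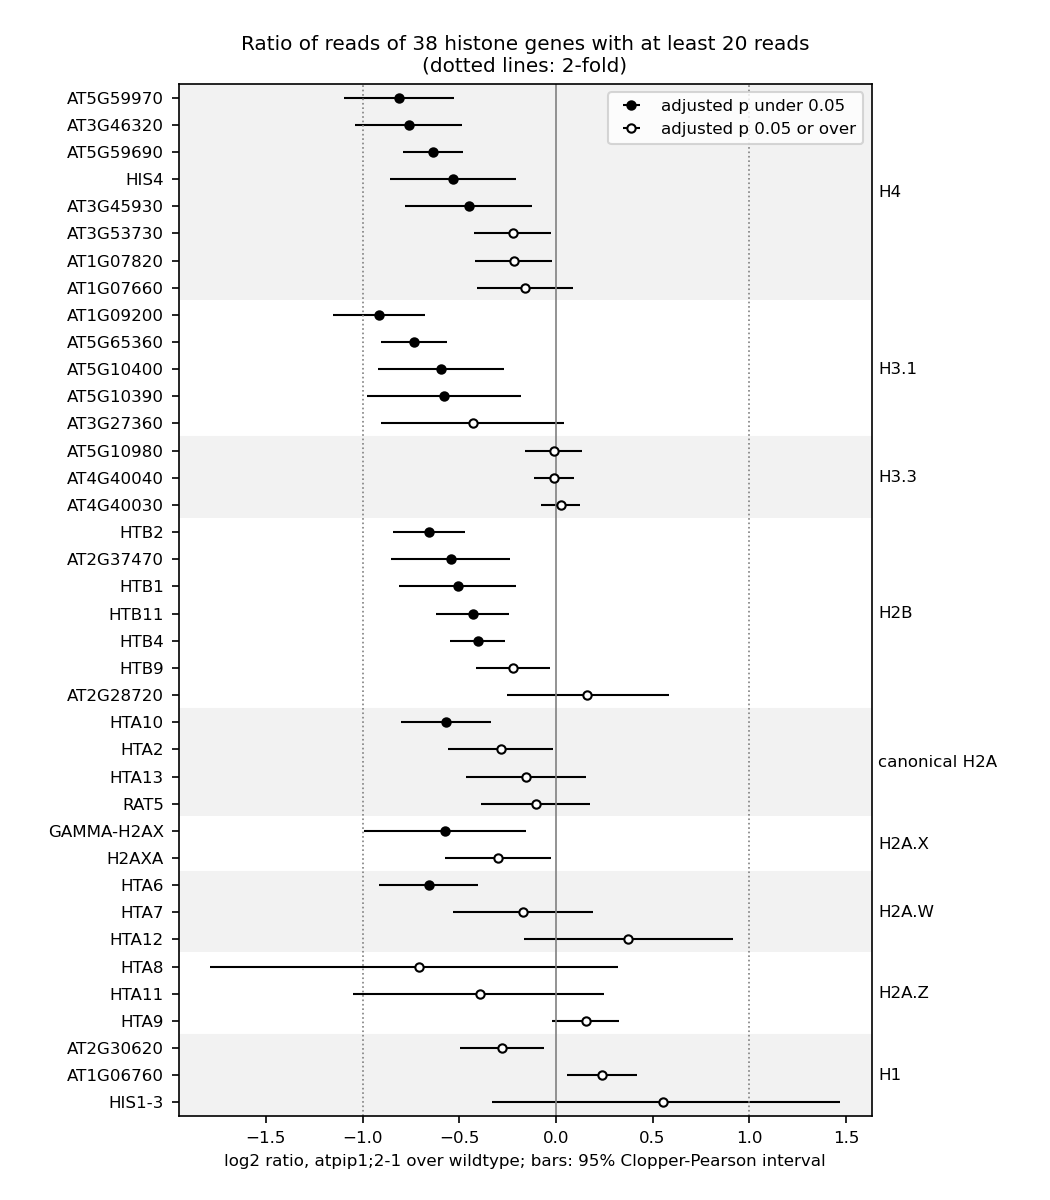
Log2 ratio of the mutant library over the wildtype library for the 38 histone genes with at least 20 reads, by class, with 95% Clopper-Pearson intervals that cover counting error only. Filled points had an adjusted p under 0.05 by the exact test; the 17 filled points all lie left of 0 and none lies beyond the dotted 2-fold line.

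Histone H4 is the least varied of the core histones and pairs with H3. Its 8 genes gave 2237 reads in the mutant library, against 2957 in the wildtype library, or 540 CPM (518 to 563) against 743 CPM (716 to 770). The log2 ratio of the sums was -0.46 (-0.54 to -0.38). All 8 genes were below 0, and 5 passed the test.

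The H4 genes differed among themselves. AT5G59690, the most abundant, had 582 reads in the mutant library, against 869 in the wildtype library (-0.64, -0.79 to -0.48; adjusted p = 5.94e-15 by the exact test). AT5G59970 had the lowest ratio of the class, with 165 reads in the mutant library, against 278 in the wildtype library (-0.81, -1.10 to -0.53). AT3G46320 followed at 177 reads, against 288 (-0.76). These 3 genes were lower by more than 1.5-fold. HIS4 (AT2G28740) passed at 136 reads in the mutant library, against 189 in the wildtype library (-0.53), as did AT3G45930 at 137, against 180 (-0.45). AT3G45930 stood close to the threshold and did not pass under 3 of 4 other library scalings.

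The other 3 H4 genes lay nearer to 0. AT3G53730 had 391 reads in the mutant library, against 439 in the wildtype library (-0.22), and AT1G07820 had 387, against 433 (-0.22). AT1G07660 had 262 reads, against 281 (-0.16, -0.41 to 0.09). The interval of AT5G59690 does not overlap those of these 3 genes, so within H4 the ratios differed beyond counting error.

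Histone H2B, which pairs with H2A, was also lower as a class. Its 10 genes gave 2375 reads in the mutant library, against 3066 in the wildtype library, or 574 CPM (551 to 597) against 770 CPM (743 to 798). The summed ratio was -0.43 on the log2 scale (-0.50 to -0.35). Of the 7 genes with enough reads 6 were below 0 and 5 passed the test.

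HTB4 (AT5G59910), the most abundant H2B gene, had 722 reads in the mutant library, against 919 in the wildtype library (-0.41, -0.55 to -0.26; adjusted p = 4.05e-07 by the exact test). HTB2 (AT5G22880) had the lowest tested H2B ratio, with 397 reads in the mutant library, against 601 in the wildtype library (-0.66, -0.84 to -0.47). HTB11 (AT3G46030) gave 406 reads, against 526 (-0.43). Less abundant genes of the class moved with them. HTB1 (AT1G07790) gave 161 reads in the mutant library, against 220 in the wildtype library (-0.51), and AT2G37470 gave 152, against 213 (-0.54). HTB9 (AT3G45980) was at 421 reads, against 472 (-0.22), and did not pass.

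AT2G28720 was the exception in this class, with 106 reads in the mutant library, against 91 in the wildtype library. Its ratio of 0.16 (-0.26 to 0.58) was not distinguishable from 0, but its interval lies above the values of HTB1, HTB2, HTB4, HTB11 and AT2G37470. The remaining 3 H2B genes were scarcely detected. AT3G53650 had 2 reads in the mutant library, against 10 in the wildtype library. AT5G02570 had 3 reads, against 7, and AT3G09480 had 5, against 7. No ratio is given for these, and AT5G02570 lies wholly inside the annotated HTA12 gene, so its reads cannot be assigned with certainty.

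**Figure D3:**
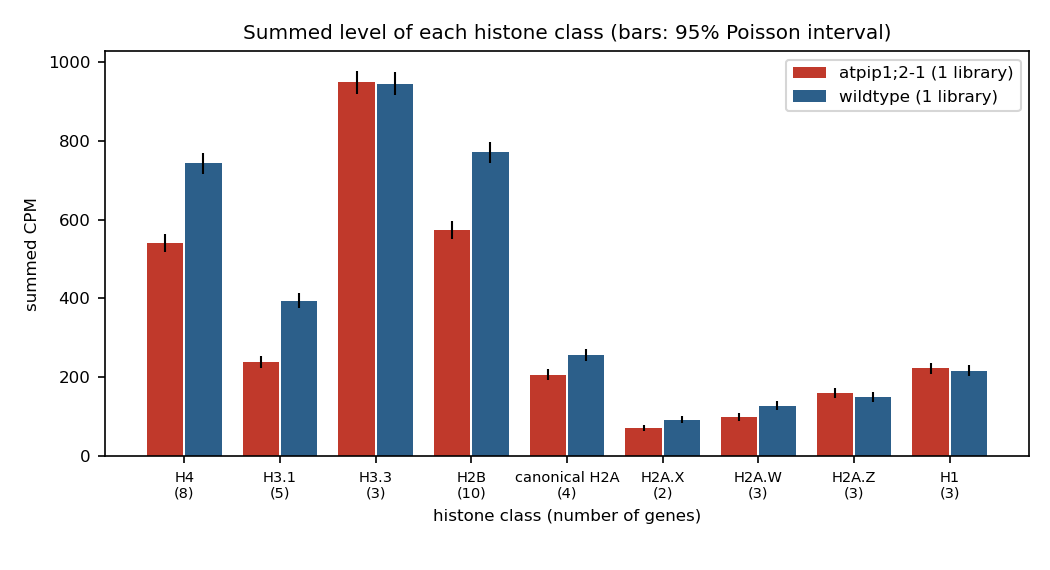
Summed CPM of each histone class in the mutant library (red, left) and in the wildtype library (blue, right), 1 library each, with 95% Poisson intervals of the reads and the number of genes in brackets. The bars of H4, H3.1, H2B, canonical H2A, H2A.X and H2A.W are lower in the mutant library, and those of H3.3 are equal within their intervals.

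Histone H2A has the most varied set of forms. Canonical H2A, the replication-type form, was lower in sum, with 850 reads in the mutant library, against 1016 in the wildtype library (log2 ratio -0.31, -0.45 to -0.18). The lowest ratio of its 4 genes was that of HTA10 (AT1G51060), which had 261 reads in the mutant library, against 372 in the wildtype library (-0.57, -0.80 to -0.34; adjusted p = 2.09e-05 by the exact test). HTA2 (AT4G27230) had 211 reads, against 247 (-0.28), and did not pass. HTA13 (AT3G20670) had 171 reads in the mutant library, against 183 in the wildtype library, and RAT5 (AT5G54640), also called HTA1, had 207, against 214. The last pair had intervals that include 0. Thus 1 of the 4 passed, and without HTA10 the summed ratio of canonical H2A was -0.19.

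H2A.X is the variant that is phosphorylated at DNA breaks. GAMMA-H2AX (AT1G54690) passed the test with 84 reads in the mutant library, against 120 in the wildtype library (-0.57, -0.99 to -0.16; adjusted p = 0.0451 by the exact test). That call was lost under 3 of 4 other library scalings, and the gene overlaps AT1G54680 by 259 bases in the annotation. H2AXA (AT1G08880) had 208 reads, against 246 (-0.30), and did not pass. Together the H2A.X genes gave 292 reads in the mutant library, against 366 in the wildtype library (-0.38, -0.61 to -0.16).

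H2A.W is the form of condensed heterochromatin. HTA6 (AT5G59870) was lower, with 211 reads in the mutant library, against 320 in the wildtype library (-0.66, -0.92 to -0.40; adjusted p = 5.34e-06 by the exact test). HTA7 (AT5G27670) had 125 reads, against 135 (-0.17), and HTA12 (AT5G02560) had 70, against 52 (0.37, -0.17 to 0.92). The class ratio of -0.38 therefore rested on HTA6: without it the ratio was 0.003. The intervals of HTA6 and HTA12 do not overlap, but HTA12 shares 522 bases with AT5G02570 in the annotation, so its reads are uncertain.

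H2A.Z, which marks the starts of genes and is lost from them on warming, did not share the lower level. The class gave 657 reads in the mutant library, against 593 in the wildtype library (0.09, -0.07 to 0.25). HTA9 (AT1G52740) held 92.1% of these reads in the mutant library and 88.2% in the wildtype library, and had 605 reads, against 523 (0.15, -0.02 to 0.33). The minor genes lay the other way. HTA11 (AT3G54560) had 38 reads in the mutant library, against 48 in the wildtype library (-0.39), and HTA8 (AT2G38810) had 14, against 22 (-0.71, -1.79 to 0.32). The median of the 3 genes was thus -0.39, with the opposite sign to the sum, and none passed the test. Without HTA9 the summed ratio was -0.49. H2A.Z took 29.8% (27.9% to 31.8%) of H2A reads in the mutant library, against 23.9% (22.2% to 25.6%) in the wildtype library.

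The linker histones showed no common direction. H1 reads came to 921 in the mutant library, against 861 in the wildtype library (0.04, -0.10 to 0.18), and the ratio was -0.23 without AT1G06760. AT1G06760, a major H1 gene, had 565 reads in the mutant library, against 461 in the wildtype library (0.24, 0.06 to 0.42; adjusted p = 0.0637 by the exact test). AT2G30620, the other major H1 gene, had 327 reads, against 381 (-0.28, -0.50 to -0.06; adjusted p = 0.0742 by the exact test). Neither passed the test, though their intervals do not overlap, and AT1G06760 passed under 3 of 4 other library scalings and AT2G30620 under the remaining one. AT1G06760 supplied 61.3% (58.1% to 64.5%) of H1 reads in the mutant library, against 53.5% (50.2% to 56.9%) in the wildtype library.

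HIS1-3 (AT2G18050), the short H1 form known to be induced by drought and present in guard cells, was rare. It had 29 reads in the mutant library, against 19 in the wildtype library (0.55, -0.33 to 1.47; adjusted p = 0.565 by the exact test), a difference that was not detectable at this depth. In a list of 8 dehydration and abscisic acid genes, 7 had enough reads, 5 were above 0, and 2 were below 0, against 50.2% of all genes. The 2-fold rule called 1 of the 7 higher, against 1.3% of all genes. That gene, the NAC transcription factor RD26, had 85 reads in the mutant library, against 36 in the wildtype library (1.18, 0.60 to 1.79). Of 6 guard cell markers 5 had enough reads, 4 of them below 0, against 50.2% of all genes, with 631 reads in all 6 in the mutant library, against 811 in the wildtype library. The most abundant, AT1G22690, held 466 of these reads in the mutant library and 637 in the wildtype library, so the sum rested mainly on it. It was at 112.5 CPM in the mutant library, against 160.0 CPM in the wildtype library (-0.51). Of the 5 tested it alone passed the test as lower, against 8.38% of all genes. The guard cell regulator FMA (AT3G24140) had 63 reads in each. The part of guard cell number in the HIS1-3 level was not tested.

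Gene structure ran parallel to these classes. The H3.1 genes, the H2B genes and 5 of the H4 genes are annotated with 1 exon in every transcript, 20 genes in all, while H3.3, H2A and H1 genes and the other H4 genes have introns in at least 1 transcript. The 17 tested genes with 1 exon had 16 values below 0, 13 passed the test, and their summed ratio was -0.52 (-0.58 to -0.47). The 21 genes with introns had 16 values below 0, 4 passed, and their summed ratio was -0.10 (-0.14 to -0.05). Without H3.3, the remaining 18 genes with introns were at -0.20 (-0.26 to -0.13). Exon number and histone class go together in H2B and H3.1, where all genes have 1 exon. H4 holds both structures, and its 5 genes with 1 exon ran from -0.76 to -0.22, while those with introns were at -0.16 for AT1G07660, -0.22 for AT1G07820 and -0.81 for AT5G59970. The ranges overlap, and the lowest H4 ratio belongs to a gene annotated with an intron in at least 1 transcript.

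Several histone genes lie near each other. In chromosome order HTA6, HTB4 and the H4 gene AT5G59970 are separated by 4 and 5 protein-coding genes on chromosome 5. All 3 passed the test, against 44.7% of the 38 tested histone genes. On chromosome 3 the H4 gene AT3G45930, HTB9 and HTB11 are separated by 4 and 4 such genes, and HTB9 did not pass. HTB1 and the H4 gene AT1G07820 have 2 between them, and only HTB1 passed. By contrast AT2G28720 and HIS4 on chromosome 2 have 1 gene between them and ratios of 0.16 and -0.53. The 3 pairs with no gene between them are the H3.1 genes AT5G10390 and AT5G10400, the H3.3 genes AT4G40030 and AT4G40040, and HTA12 with AT5G02570.

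Levels of different genes were compared per kilobase of transcript. Reads from 3' ends need not scale with length, so this order depends on the choice of unit. In the mutant library the 3 H3.3 genes ranked highest, with AT4G40030 at 386 CPM per kilobase, AT4G40040 at 281 and AT5G10980 at 227. The H4 gene AT5G59690 came next at 189 CPM per kilobase. Without division by length, HTB4 came next, at 174.3 CPM in the mutant library, and AT5G59690 was at 140.5 CPM. In the wildtype library AT4G40030 also ranked first, at 379 CPM per kilobase. There AT5G59690 at 293 and the H3.1 gene AT5G65360 at 255 stood among the H3.3 genes, which were at 283 for AT4G40040 and 229 for AT5G10980. Without division by length, AT5G59690 was below AT4G40040 in the wildtype library, at 218.3 CPM, against 365.0 CPM. By that unit AT5G65360, at 184.6 CPM, was below AT5G10980, at 187.4 CPM. At the other end were HTA8, HIS1-3, HTA11, HTA12 and the 3 scarcely detected H2B genes.

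Most genes of DNA replication and cell division had log2 ratios below 0, though few passed the test. The 24 tested H4, H3.1, H2B and canonical H2A genes had a median log2 ratio of -0.48, with 23 below 0 and 15 passing the test as lower. The other 14 histone genes had a median of -0.09, with 9 below 0 and 2 passing as lower. In a list of 25 DNA replication genes, 24 were in the files and 16 had enough reads. Of these 14 were below 0, against 50.2% of all genes tested, and the median was -0.49. By the 2-fold rule 0 were called lower, against 1.1% of all genes, and 2 of the 16 passed the test as lower, against 8.38%. Without a test, 7 of the 16 were at least 1.5-fold lower, against 9.11% of all genes. The summed reads of the 24 genes had a log2 ratio of -0.51 (-0.65 to -0.36).

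TSO2, a small subunit of ribonucleotide reductase that makes DNA precursors in S phase, had 169 reads in the mutant library, against 301 in the wildtype library (-0.89, -1.17 to -0.61; adjusted p = 2.36e-09 by the exact test). Its relative RNR2A had 95 reads, against 105 (-0.20). The other gene to pass, named after its values were seen, was the DNA ligase gene LIG1 with 30 reads in the mutant library, against 55 in the wildtype library. Of 18 genes of mitosis and the cyclins 8 had enough reads. All 8 were below 0, against 50.2% of all genes, and none passed the test, with a median of -0.55. Without a test, 3 of the 8 were at least 1.5-fold lower, against 9.11% of all genes. The 18 genes summed to a log2 ratio of -0.62 (-0.90 to -0.35). The D-type cyclin CYCD3;2 had 54 reads in the mutant library, against 71 in the wildtype library, and the kinase gene CDKB2;1 had 25, against 35.

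The list of histone chaperones, which carry histones and load them on DNA, also held the chromatin remodelling genes PIE1, ARP6, SEF and ATRX. Of 16 tested genes 10 were below 0 and 6 above, against 50.2% of all genes below 0, and the median was -0.12. All of PIE1 (0.58), ARP6 (0.07), SEF (0.58) and ATRX (0.21) were above 0. The other genes above 0 were SGA2 (0.49) and ASF1B (0.24), so the mixed direction came largely from the remodelling genes. As lower 3 passed the test, against 8.38% of all genes, and 0 were called by the 2-fold rule, against 1.1%. NRP1, an H2A-H2B chaperone, had 169 reads in the mutant library, against 314 in the wildtype library (-0.95, -1.23 to -0.68; adjusted p = 7.21e-11 by the exact test). NAP1;2, of the same family of chaperones, had 423 reads, against 431 (-0.08). The others to pass, named after their values were seen, were NRP2 with 32 reads in the mutant library, against 60 in the wildtype library, and NAP1;1 with 133, against 176. The CAF-1 subunits FAS1, FAS2 and MSI1 were also named after their values were seen. FAS1 and FAS2 had 18 and 14 reads in the mutant library, against 22 and 15 in the wildtype library. These are too few to detect a difference of the size seen for H3.1. MSI1 had 61 reads in each library (-0.06, -0.59 to 0.48), and this interval does not include the summed H3.1 ratio of -0.73.

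Most markers of young leaf, shoot meristem and flower were at or near the limit of detection. The leaf growth regulator genes ANT, AN3, GRF5 and JAG gave 20 reads in all in the mutant library, against 26 in the wildtype library. Of these, ANT had 17, against 19, and GRF5 and JAG were at 0 in both. Of 4 shoot meristem markers KNAT1, WUS and CLV3 were at 0 in both libraries, and STM had 3 reads in the mutant library, against 0 in the wildtype library. The flower markers LFY, AP1 and AP3 were at 0 in both, and AG had 0 reads, against 2. A count of 0 allows up to 0.724 CPM in the mutant library and 0.754 CPM in the wildtype library. Root markers gave 45 reads, against 44, from SHR with 30, against 34, and PYK10 with 15, against 10. The root markers PLT1 and WOX5 were at 0 in both. The part of the share of dividing cells in the histone levels was not tested. Of 8 histone genes outside the 41, only the centromere variant HTR12 had enough reads, with 8 in the mutant library, against 16 in the wildtype library (-1.06, -2.49 to 0.25), and MGH3, HTA4, AT1G75600 and AT5G12910 were at 0 in both.

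The 11 reference genes, used elsewhere as steady transcripts, had a median of 0.03, with 5 below 0. Their summed reads had a ratio of -0.29 (-0.32 to -0.26), beside -0.27 for all histone reads. The translation elongation factor gene AT5G60390 was at 1122 CPM in the mutant library, against 2006 CPM in the wildtype library (-0.84), and the glycolytic gene GAPC2 at 803 CPM, against 1130 CPM (-0.49). UBQ10 was at 1549 CPM, against 1333 CPM (0.22), and ACT2 at 414 CPM, against 352 CPM (0.23). Abundant reference transcripts thus differed in both directions. Their part in the histone levels was not tested.

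**Figure D4:**
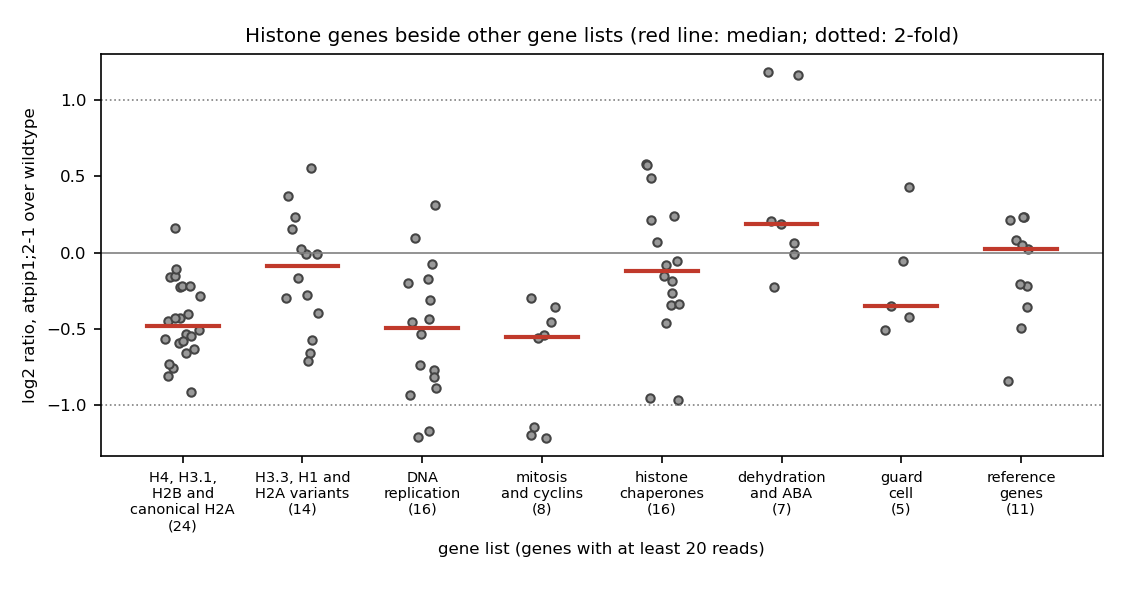
Log2 ratio of the mutant library over the wildtype library for each gene with at least 20 reads in the histone groups and 6 other gene lists, with the number of genes in brackets. The red line is the median: -0.48 for H4, H3.1, H2B and canonical H2A, -0.09 for the other histone genes and 0.03 for the reference genes, whose summed reads were at -0.29.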

How the data were processed

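Leaf RNA from an atpip1;2-1 and a wildtype plant group was sequenced from transcript 3' ends on a Genome Analyzer II, per the labels' protocols. The deposited files hold raw read counts per locus, whole numbers that the authors left unscaled as far as the values show, for 1 library of each genotype. Per the submitters' processing notes, reads were placed on TAIR9. Aligner, counter, strandedness and the handling of multiply matching reads: not given in the sources used here. Each file had 27337 rows, and 1 locus listed more than once with 1 value was kept once.

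The members and lists were chosen with earlier results of these data known. TMM factors (1.02 mutant, 0.976 wildtype) came from edgeR 4.0.16 in R 4.3.3. With 1 library per genotype, edgeR's quasi-likelihood test could not be fitted. Instead, the 15111 genes with 20 reads or more in total entered an exact binomial test (two-sided; p adjusted by Benjamini-Hochberg across them all), and intervals are Clopper-Pearson or Poisson at the 95% level. Reads carry no molecular identifiers, so intervals and the limit of 3 reads for a count of 0 cover counting error only. The test script was checked on simulated counts with known changes. These counts held counting error only, so the check does not cover spread between plants or library preparations. By the plan, text could name all members, and of other lists the called genes or else the 2 most abundant. Genes named beyond these fall outside that rule, among them LIG1, GAPC2, ACT2, CA1, PSBR and the markers at or near 0 reads.

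Symbols, exon numbers, transcript lengths, overlaps and gene order came from RefSeq for assembly TAIR10.1, matched by locus for all 41 members. As that build differs from the authors', no coordinates or sequences are given. In it 9 members overlap another gene, and without strand information their reads are uncertain. The classes of AT1G06760 and AT2G30620 rest on the list of members, since RefSeq names them only as winged-helix proteins. Alternatives changed library sizes (plain totals, DESeq2 1.42.0 factors, 11 reference genes, or totals that leave out organelle genes and the 20 genes with most reads), the read minimum, the fold and the test (edgeR's exact test, taking 0.2 as the biological coefficient of variation). Python 3.11.15, numpy 2.4.6, scipy 1.17.1, pandas 2.3.3 and matplotlib 3.10.9 were used.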

Additional observations from a re-analysis of the deposited data

How the results depend on the processing

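No paired analysis was possible because each genotype has 1 library, and for the same reason no replicate could be left out. Reduced totals below leave out organelle genes and the 20 most abundant genes. The other scalings moved all log2 ratios by between -0.027 and 0.072. Under them, between 30 and 33 of the 38 members were below 0, and between 6 and 12 were at least 1.5-fold lower. The read minimum changes how many members are tested. At 100 reads 30 of 35 were below 0 and 8 at least 1.5-fold lower. At 10 reads or no minimum, with scarcely detected genes added, 35 were below 0 and 11 at least 1.5-fold lower. Under all these settings the median lay between -0.43 and -0.33. Members lower by adjusted p numbered between 14 and 18. The count of members called lower was 8 at 1.5-fold and 0 otherwise, also by edgeR's exact test with the assumed variation. By that test 15 genes of all were higher and 3 lower. No member with at least 20 reads reached 2-fold under any scaling, so for these members the 0 was fixed before any test. It is therefore no check on the assumed variation, and members lower at any fold by edgeR's test were not counted. At 1.5-fold 496 of all genes were higher and 599 lower, and at 100 reads 97 and 80. All genes called were 197 higher and 166 lower, but 252 and 118 with total counts and 254 and 118 with reduced totals. 1 member, AT1G06760, was higher by adjusted p with total counts, with DESeq2 factors, with reduced totals, and at a minimum of 100 reads. The summed histone ratio of -0.27 was -0.20 with total counts or reduced totals, and -0.38 without H3.3. The H3.1 share per kilobase was 26.3% in the mutant library and 37.2% in the wildtype library. The H2A.W ratio without HTA6 was 0.003. H3.3 genes changed sign: AT4G40030 to -0.001 with reference genes, AT4G40040 to 0.060, 0.007 and 0.062 and AT5G10980 to 0.059, 0.005 and 0.061 with total counts, DESeq2 factors and reduced totals. These shifts follow from the scaling or from the gene left out. With 1 library each, depth limits genes under about 100 reads, such as HIS1-3 and HTA8. The counts by adjusted p at any fold, the share per kilobase, the sum without H3.3 and the comparison with all genes of at least 100 reads were chosen after seeing the data.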
